A study of Mus musculus with 12 samples.

Results

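The 8 genes described here are C1qa, C1qb, C1qc, C3, Cfb, Cfp, C3ar1 and C5ar1, taken by symbol from the 24728 genes of a count table of mouse bone-marrow derived macrophages. They cover the chains of C1q, the central component C3, 2 alternative pathway factors and the receptors for the fragments C3a and C5a. The macrophages carried dTomato and were sorted after ex vivo exposure in assays with dissociated tumors of the brain, in a study of how macrophages recycle myelin in brain cancer. The 12 libraries form 4 groups of 3. By their names, Full Tumor macrophages met whole tumor material, Tumor without Myelin macrophages met it freed of myelin and Myelin Alone macrophages met myelin only. What Control cells received is not stated. Each group holds 1 library with each of the mn numbers 957, 958 and 016, and the labels do not say what that number is. The series describes gliomas driven by PDGFB in Nestin-positive progenitors, either on an Ink4a/Arf knockout background or with knockdown of p53, and the labels do not say which of these models gave the material here. Neither the time of exposure, nor what drives dTomato, nor the age of the animals is given. The labels do not tie the libraries of a group to separate animals or cultures. The p-values then reflect the spread between these libraries alone, and it may be technical.

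Complement is a cascade of plasma and tissue proteins that tags particles and cells for uptake. In its classical branch, C1q binds antibodies, dying cells or debris and starts the cleavage of C3 through its partner proteases and C4 and C2. In the alternative branch, factor B joins a fragment of C3 to form an enzyme that cleaves more C3, and properdin, the product of Cfp, holds that enzyme together. Cleavage of C3 and C5 releases the small peptides C3a and C5a, which act on the receptors C3ar1 and C5ar1 of myeloid cells. Most plasma C3 comes from the liver, whereas C1q is made largely by macrophages and dendritic cells and, in the brain, by microglia.

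Libraries held 17071673 to 21689624 counts, and 3 counts, the upper limit that a count of 0 allows, correspond to 0.142 to 0.182 CPM. CPM here means a count divided by the library total times its TMM scaling factor, on the usual CPM scale. The sorted cells had a macrophage profile, with 9 of 10 listed macrophage markers above a mean of 10 CPM in each group. The summed level of these markers was 14911 to 17352 CPM in Full Tumor, 16139 to 17953 in Tumor without Myelin, 13235 to 15494 in Myelin Alone and 13073 to 15125 in Control. Marker sums of other cell types were at most 17.5 CPM for astrocytes, 3.31 for neurons, 7.93 for T and B cells and 11.1 for classical dendritic cells, 74.6 for endothelial cells, 161 for oligodendrocytes and 24.2 for PDGF-driven tumor progenitors. Neutrophil markers summed to 15.3 to 90.5 CPM in Full Tumor, 10.4 to 114 in Tumor without Myelin, 23.2 to 136 in Myelin Alone and 38.9 to 282 in Control, with the highest value in the 016 Control library. In bulk samples, fewer cells of a type and less RNA per cell cannot be told apart.

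Of the 8 genes, 7 passed the filter on low counts and were among the 13414 genes tested, each present in all 12 libraries. The exception, Cfb, is described with C3. Set per kilobase of merged exon (GENCODE M21), so that genes can be compared, C1qb was the most abundant at a mean of 1848 CPM per kb over the 12 libraries, which ranked 15 among 13403 tested genes with a known length. C1qc followed at 796 CPM per kb (rank 40), C3ar1 at 461 (rank 85), C1qa at 318 (rank 133), C5ar1 at 316 (rank 135) and Cfp at 108 (rank 524). C3 stood far lower, at 3.49 CPM per kb (rank 7000). In Control alone the levels were 1291 ± 765 CPM per kb for C1qb, 551 ± 299.6 for C1qc, 388 ± 34.0 for C3ar1, 281 ± 23.6 for C5ar1, 196 ± 116 for C1qa, 59.2 ± 48.5 for Cfp and 2.14 ± 0.92 for C3 (SD, n = 3). Neighbouring levels in this order lay within the SD of at least one of the pair from C1qb through C1qa, except C3ar1 against C5ar1. The macrophages thus held abundant transcripts of the C1q chains and of both receptors, and scarce transcripts of C3.

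**Figure D1:**
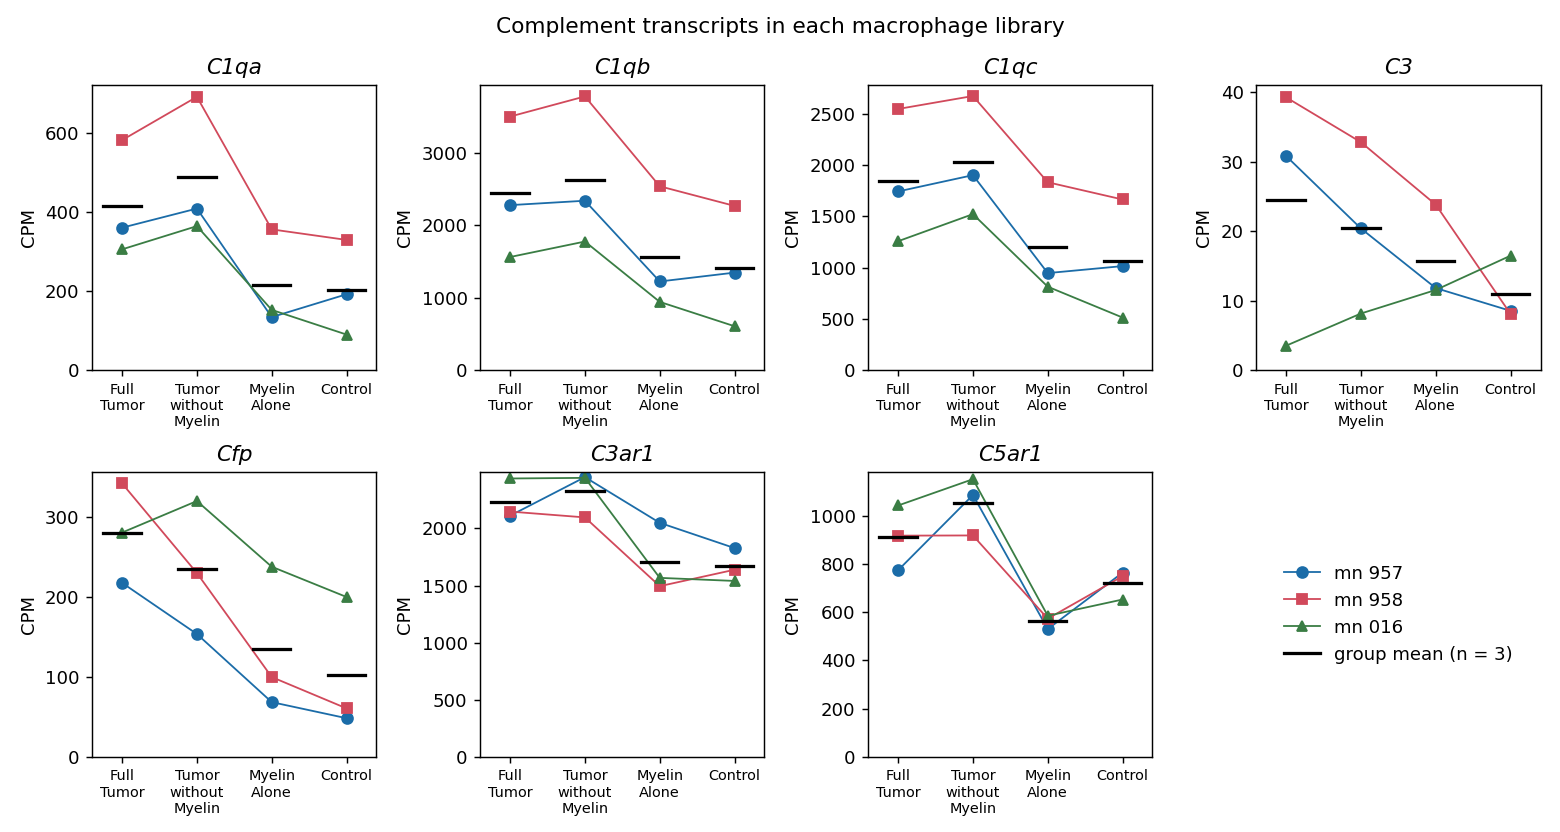
Level of each of the 7 tested complement genes in CPM (y axis, from 0) in the 4 groups (x axis). Each point is 1 library, coloured lines join the libraries of an mn number and black bars are group means of 3 libraries. C1qa, C1qb and C1qc are higher in the tumor libraries than in Control within every number, and C3 runs the other way in number 016.

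The C1q genes lie side by side on the minus strand of chromosome 4 (mm10). C1qb (ENSMUSG00000036905) spans 136880129 to 136886187, C1qc (ENSMUSG00000036896) 136889804 to 136893065 and C1qa (ENSMUSG00000036887) 136895917 to 136898803. The 250 bases before the RefSeq start of C1qb and C1qc (GRCm38.p6, minus strand, 5′ to 3′) are shown because these 2 neighbouring genes kept a nearly fixed proportion over the libraries. Capitals mark matches to 2 searched motifs on either strand, the NF-kB pattern (GGGA and CC with any 4 bases between them) and the PU.1 word GAGGAAG. For C1qb the region is chr4:136886201-136886450 and for C1qc chr4:136892915-136893164.
C1qb: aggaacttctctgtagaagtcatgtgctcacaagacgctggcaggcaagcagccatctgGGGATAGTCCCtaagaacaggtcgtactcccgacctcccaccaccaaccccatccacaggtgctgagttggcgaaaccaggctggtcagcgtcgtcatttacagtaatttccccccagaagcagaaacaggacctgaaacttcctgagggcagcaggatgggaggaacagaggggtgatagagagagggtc
C1qc: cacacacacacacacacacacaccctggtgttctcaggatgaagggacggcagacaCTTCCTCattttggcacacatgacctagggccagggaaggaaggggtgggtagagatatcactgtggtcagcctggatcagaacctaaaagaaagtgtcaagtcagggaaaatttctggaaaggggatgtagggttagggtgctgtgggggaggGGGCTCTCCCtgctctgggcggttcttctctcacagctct
In C1qb the capitals are an overlapping pair of NF-kB matches, 1 on each strand, the first of which starts 191 bases before the start. In C1qc they are a PU.1 match 194 bases before the start and an NF-kB match 40 bases before it, both on the opposite strand. The C1qc window lies partly inside the gene as annotated in the count table, which reaches 136893065. Its NF-kB match is within the annotated gene, and its PU.1 match is outside it. Of 32851 mouse promoter windows of the same length, 17.6% held the NF-kB pattern and 10.6% the PU.1 word, on either strand. Neither window held the other motifs searched, the interferon response pattern (GAAA and GAAA with any 2 bases between them), the GAS pattern TTCNNNGAA or the MAF word TGCTGAC, which 2.98%, 7.02% and 3.81% of the windows held.

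C1qa encodes the A chain of C1q. With the mn numbers in the order 957, 958 and 016, it had 361, 583 and 306 CPM in Full Tumor and 409, 693 and 365 CPM in Tumor without Myelin. It had 134, 356 and 152 CPM in Myelin Alone and 192, 330 and 89.7 CPM in Control. Every Tumor without Myelin library was above every Control library, whereas the Full Tumor and Control libraries overlapped, since number 958 was the highest of each group. C1qb, the B chain, had 2276, 3499 and 1560 CPM in Full Tumor, 2337, 3777 and 1773 in Tumor without Myelin, 1222, 2536 and 939.99 in Myelin Alone and 1344, 2265 and 604 in Control. C1qc, the C chain, had 1745, 2551 and 1258 CPM in Full Tumor, 1904, 2678 and 1523 in Tumor without Myelin, 947, 1835 and 814 in Myelin Alone and 1015, 1666 and 512 in Control. For both chains the groups overlapped, and number 958 was highest and number 016 lowest in every group. Over the 4 libraries of a number, C1qb averaged 1795 CPM in 957, 3019 in 958 and 1219 in 016. Its group means were 2445 ± 981 CPM in Full Tumor, 2629 ± 1033 in Tumor without Myelin, 1566 ± 852 in Myelin Alone and 1404 ± 832 in Control (SD, n = 3 each). The means of the numbers thus lay farther apart than those of the groups.

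Within each mn number, all 3 C1q genes were higher with tumor material than in Control. The Full Tumor minus Control difference for numbers 957, 958 and 016 was 0.91, 0.82 and 1.77 in C1qa, on the log2 scale with 0.5 added to the counts. The same difference was 0.76, 0.63 and 1.37 in C1qb and 0.78, 0.61 and 1.30 in C1qc. With Tumor without Myelin in place of Full Tumor it was 1.09, 1.07 and 2.02 in C1qa. The size thus varied between numbers and the sign did not.

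The comparison with Control asked whether exposure to tumor material changed these genes. With group as the only term in edgeR's quasi-likelihood test, C1qa had a log2 fold change of 1.03 ± 0.49 (approximate SE) between Full Tumor at 416 ± 147 CPM and Control at 204 ± 120 CPM (SD, n = 3 each). It was not called, and among the 8 genes 0 passed an adjusted p of 0.05 in either tumor group against Control, as did 0% of the 13414 tested genes. At an unadjusted p under 0.05, 3 of the 7 tested members and 560 of all genes passed between Full Tumor and Control, and 3 members and 548 genes between Tumor without Myelin and Control. DESeq2 and limma-voom with group only also called 0 members in both. The mn numbers were found to pair the libraries, and a fit with the number as a block took the spread between numbers out of the error. In that fit, 4 of the 7 tested members rose in Full Tumor, against 0.634% of all tested genes that were called higher. These were the 3 C1q genes and Cfp. Likewise 3 of the 7 rose in Tumor without Myelin, all of them C1q genes, against 0.559% of all genes.

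With the block, C1qa rose in Full Tumor by 1.13 ± 0.20 on the log2 scale (edgeR adjusted p = 0.0252), C1qb by 0.90 ± 0.14 (0.0163) and C1qc by 0.88 ± 0.15 (0.0176). In Tumor without Myelin, with means of 489 ± 178 CPM for C1qa, 2629 ± 1033 for C1qb and 2035 ± 588 for C1qc, the same genes rose by 1.36 ± 0.20 (edgeR adjusted p = 0.0128), 1.01 ± 0.15 (0.0121) and 1.04 ± 0.15 (0.0108). Transcripts of the C1q chains were therefore higher by 1.84 to 2.57 times in both tumor groups relative to the Control libraries of the same number. These calls rest on few libraries. Leaving out 1 library in turn, in the blocked fit, ended the Full Tumor call of C1qa in 5 of 12 cases (without any of the 3 Full Tumor libraries, the 957 library of Tumor without Myelin or the 958 Control library; log2 0.85 to 1.32, highest adjusted p = 0.135). It ended that of C1qb in 2 cases, without the 957 or the 016 Full Tumor library, with a highest edgeR adjusted p of 0.0883. It ended that of C1qc without any of the 3 Full Tumor libraries or the 957 Control library, with a highest edgeR adjusted p of 0.105. In Tumor without Myelin, C1qa and C1qc lost the call without its 957 or its 016 library and C1qb without its 016 library, with edgeR adjusted p-values of at most 0.0662.

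A contrast over all 12 libraries set the mean of the 6 tumor libraries, with and without myelin, against the mean of the 6 others. It uses the same libraries as the comparisons above and is not separate support for them. With the block, 6 of the 7 tested members rose, against 1.63% of all tested genes called higher and 2.25% called in either direction, and the median log2 difference was 0.85 over the members and −0.00 over all tested genes. C1qa rose by 1.20 ± 0.14 (edgeR adjusted p = 0.00175), a fold of 2.29, C1qb by 0.85 ± 0.10 (0.00175) and C1qc by 0.85 ± 0.10 (0.00182), a fold of 1.80. With group as the only term, 0 of the 7 members passed edgeR's adjusted threshold, against 0.0745% of all genes. At an unadjusted p under 0.05, 6 of the 7 members and 775 of all tested genes passed. DESeq2 with group only called 2, the receptor genes, and limma-voom 0. The 6 blocked calls held in each of the 12 fits that left out 1 library, with C1qa between 1.06 and 1.30. Without the whole of number 957 the blocked fit called 2 members, without 958 it called 3 and without 016 it called 6. The 6 without 016 held C3 in place of C3ar1. Counts over all genes in these fits without a number are not given here, so their member counts stand without a background.

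**Figure D2:**
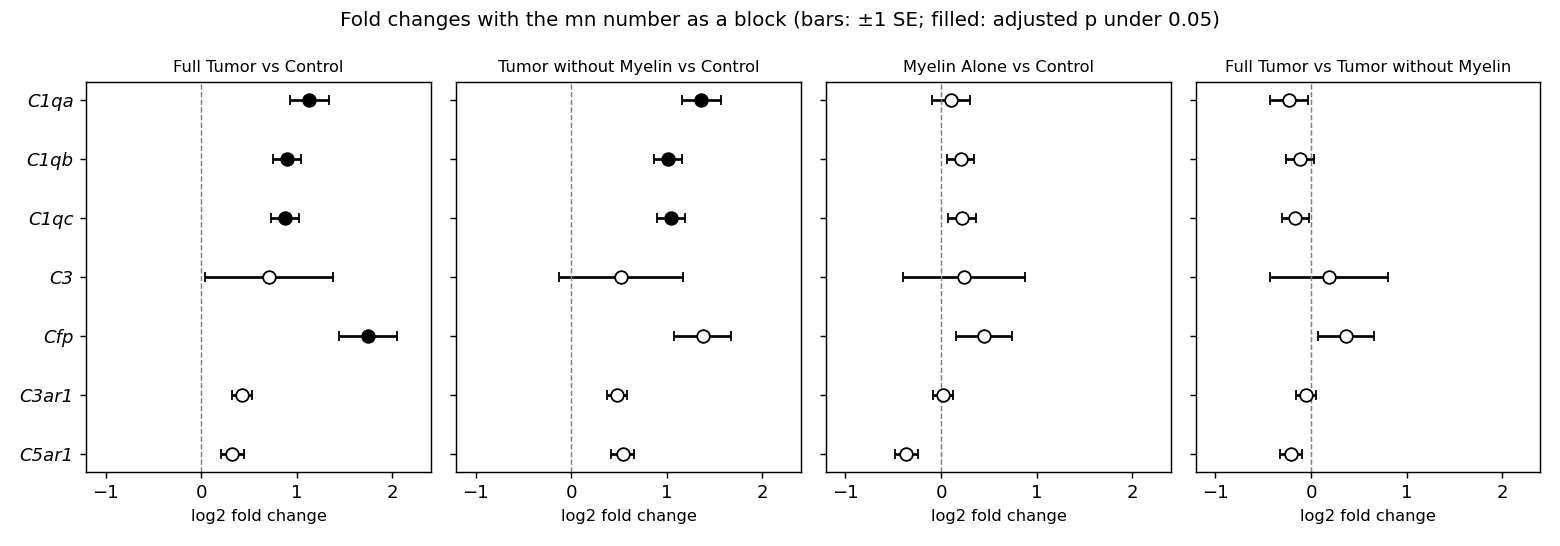
Log2 fold change (x axis) of each tested complement gene (rows of points, named on the left) in 4 comparisons, from the fit with the mn number as a block. Bars are 1 SE to each side, and filled points passed an adjusted p of 0.05: the 3 C1q genes in both tumor groups and Cfp in Full Tumor.

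C1qb and C1qc kept a nearly fixed proportion. The ratio of C1qb to C1qc CPM was 1.16 to 1.41 over the 12 libraries, with a mean of 1.28 ± 0.09 (SD), whereas that of C1qb to C1qa was 4.86 to 9.12. After centring on the mn number, the log2 CPM of C1qb and C1qc correlated at r = 1.00 over 12 libraries that share groups and numbers, and those of C1qa with either at 0.99. The summed C1q level was 4713 ± 1778 CPM in Full Tumor, 5153 ± 1797 in Tumor without Myelin, 2979 ± 1528 in Myelin Alone and 2673 ± 1531 in Control (SD, n = 3 each). It made up 0.305% to 0.653% of all counts in Full Tumor and 0.119% to 0.453% in Control. C1qa took a larger part of that sum in the tumor libraries, an observation made after the values were seen. Its part, for 957, 958 and 016, was 8.23%, 8.79% and 9.79% in Full Tumor and 8.80%, 9.69% and 9.96% in Tumor without Myelin. It was 5.82%, 7.54% and 7.99% in Myelin Alone and 7.52%, 7.74% and 7.44% in Control. All 6 tumor libraries lay above all 6 others, without a test.

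**Figure D3:**
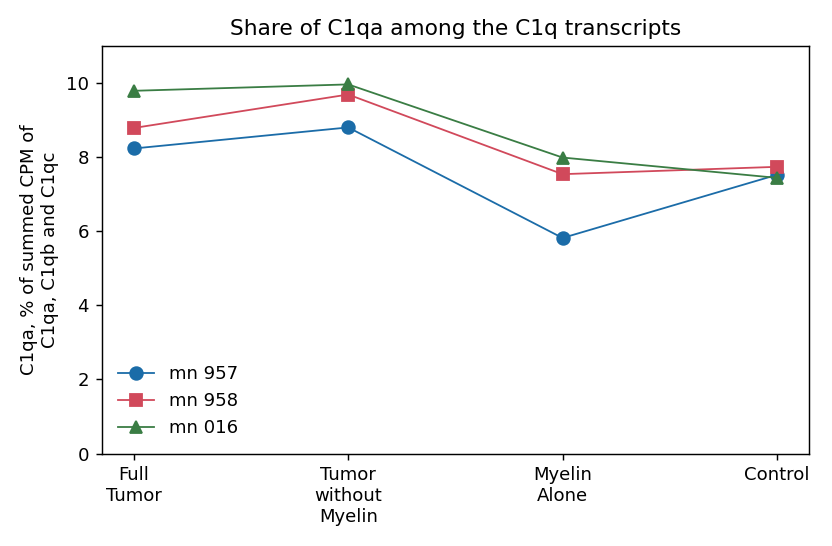
Share of C1qa in the summed CPM of C1qa, C1qb and C1qc in percent (y axis, from 0) in the 4 groups (x axis), with 1 point per library and lines joining the libraries of an mn number. The 6 tumor libraries sit between 8.23% and 9.96%, above the 5.82% to 7.99% of the others.

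Microglia also make C1q, and the summed level of their listed markers was higher in the tumor libraries. Of the 8 tested markers, edgeR called 2 higher in Full Tumor and 4 in Tumor without Myelin with the block, and 0 in both with group only, where 2 and 4 had an unadjusted p under 0.05. The summed level of the 9 microglia markers in the table, of 10 listed, was 738 to 969.9 CPM in Full Tumor, 836 to 1134 in Tumor without Myelin, 653 to 685 in Myelin Alone and 405 to 655 in Control. Within it, Olfml3 had 89.2 to 355 CPM over the 12 libraries, Cx3cr1 32.6 to 220.3 and Fcrls 7.65 to 142. Among the most selective markers, Tmem119 had 0.604 to 28.4 CPM, P2ry12 0 to 3.58 and Siglech 0 to 0.728. The cells were sorted for dTomato, and what drives dTomato is not given. The part of the microglia marker transcripts in the C1q result was not tested.

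By the rule described with the methods, the genes outside the 8 whose pattern over the 12 libraries was most like the mean of the C1q genes were Aif1 (r = 0.98), Tgfbi (0.98), Pitpnc1 (0.98), Olfml3 (0.96) and Itgav (0.96), after centring on the mn number. Aif1 encodes the macrophage and microglia protein Iba1, Tgfbi a secreted matrix protein, and Itgav the integrin alpha V chain. Olfml3 is also among the listed microglia markers. The libraries share groups and numbers, so these values are descriptions.

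C3 (ENSMUSG00000024164, chromosome 17, 57203970 to 57228136, minus strand) is the component on which the pathways of complement meet. Its upstream region, chr17:57228137-57228386 (GRCm38.p6, minus strand, 5′ to 3′), is shown because C3 was the tested member whose change had opposite signs in the mn numbers. Capitals mark 3 matches to the NF-kB pattern, which start 197, 33 and 10 bases before the RefSeq start. That of 33 bases is on the opposite strand.
C3: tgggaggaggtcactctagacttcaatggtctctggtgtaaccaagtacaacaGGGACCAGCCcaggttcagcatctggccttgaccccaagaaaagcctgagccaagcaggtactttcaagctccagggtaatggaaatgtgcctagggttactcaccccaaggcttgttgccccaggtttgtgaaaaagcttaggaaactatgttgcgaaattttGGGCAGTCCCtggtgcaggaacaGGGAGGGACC
No match to the interferon response pattern, the GAS pattern, the PU.1 word or the MAF word was in this window.

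C3 had 30.8, 39.3 and 3.49 CPM in Full Tumor, 20.4, 32.8 and 8.13 in Tumor without Myelin, 11.8, 23.8 and 11.5 in Myelin Alone and 8.52, 8.07 and 16.5 in Control, for 957, 958 and 016. The 957 and 958 tumor libraries were above all 3 Control libraries, and the 016 Full Tumor library was the lowest of all 12. Group means were 24.5 ± 18.7 CPM in Full Tumor and 11.0 ± 4.73 CPM in Control (SD, n = 3 each), and neither fit called C3. With the block its log2 fold change was 0.71 ± 0.67 in Full Tumor (edgeR adjusted p = 0.814) and 0.52 ± 0.65 in Tumor without Myelin (0.880). By number, Full Tumor minus Control was 1.85 in 957, 2.28 in 958 and −2.23 in 016. With the block, the Full Tumor value was −0.06 ± 0.92 without number 957, −0.02 ± 0.78 without 958 and 2.05 ± 0.29 without 016. C3 passed edgeR's threshold in the fit without 016, which leaves out the number of opposite sign, so that fit supports no call. A test of whether the tumor contrast differed between the mn numbers, added after the values were seen, gave an adjusted p of 0.273 for C3 in edgeR, and 0.291% of the tested genes passed it.

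**Figure D4:**
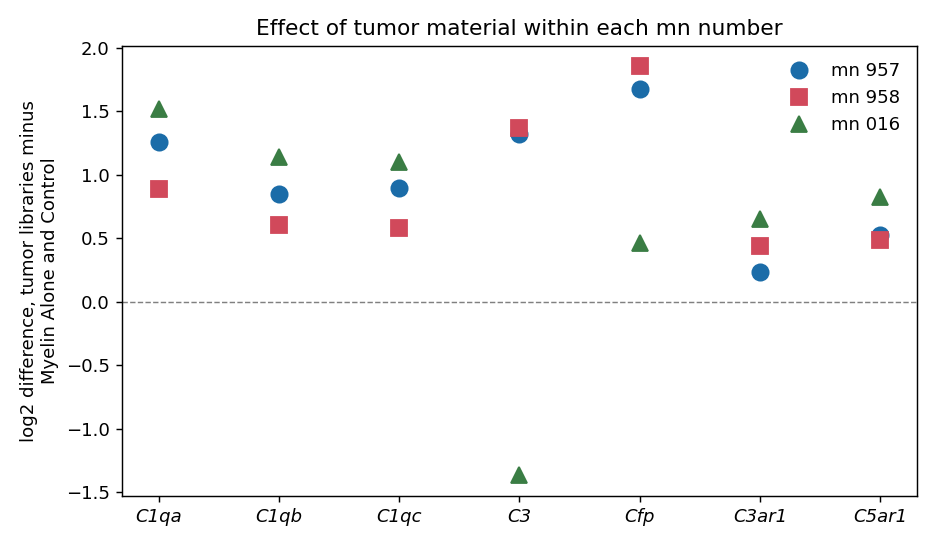
Log2 difference between the mean of the tumor libraries and the mean of Myelin Alone and Control (y axis) within each mn number (colour and shape), for the 7 tested complement genes (x axis). C3 has 1.32 and 1.37 in numbers 957 and 958 and −1.37 in 016, Cfp has 1.67, 1.85 and 0.46, and the other genes are above 0 in every number.

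Interferon-induced transcripts split the tumor libraries along the same lines. The summed level of 20 such genes was 2413, 2675 and 496 CPM in Full Tumor, 2733, 3219 and 644 in Tumor without Myelin, 453, 600.3 and 514 in Myelin Alone and 532, 549 and 840.3 in Control, for 957, 958 and 016. The 957 and 958 tumor libraries were high, and the 016 tumor libraries lay below the 016 Control library, as they did for C3. Over 14 listed inflammatory NF-kB genes, 13 of them in the table, sums were 534 to 625 CPM in Full Tumor and 433 to 597 in Control. The neutrophil marker sum given above followed another pattern. In number 016 it was 282 CPM in Control, 15.3 in Full Tumor and 57.5 in Tumor without Myelin. For 957 and 958 it was 38.9 and 87.5 CPM in Control, 76.9 and 90.5 in Full Tumor and 10.4 and 114 in Tumor without Myelin. The part of these transcripts in the C3 values was not tested. Markers of hepatocytes, the main makers of plasma C3, summed to at most 0.970 CPM in any library.

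The genes most like C3 over the 12 libraries were H2-Ab1 (r = 0.96), Arl5c (0.92) and H2-Eb1 (0.92), of which H2-Ab1 and H2-Eb1 encode chains of major histocompatibility complex class II. After centring on the mn number, C3 itself correlated weakly with the C1q genes, at r between 0.09 and 0.11, and at 0.68 with Cfp. Without centring the order was the reverse, at 0.39 to 0.48 with the C1q genes and 0.21 with Cfp.

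**Figure D5:**
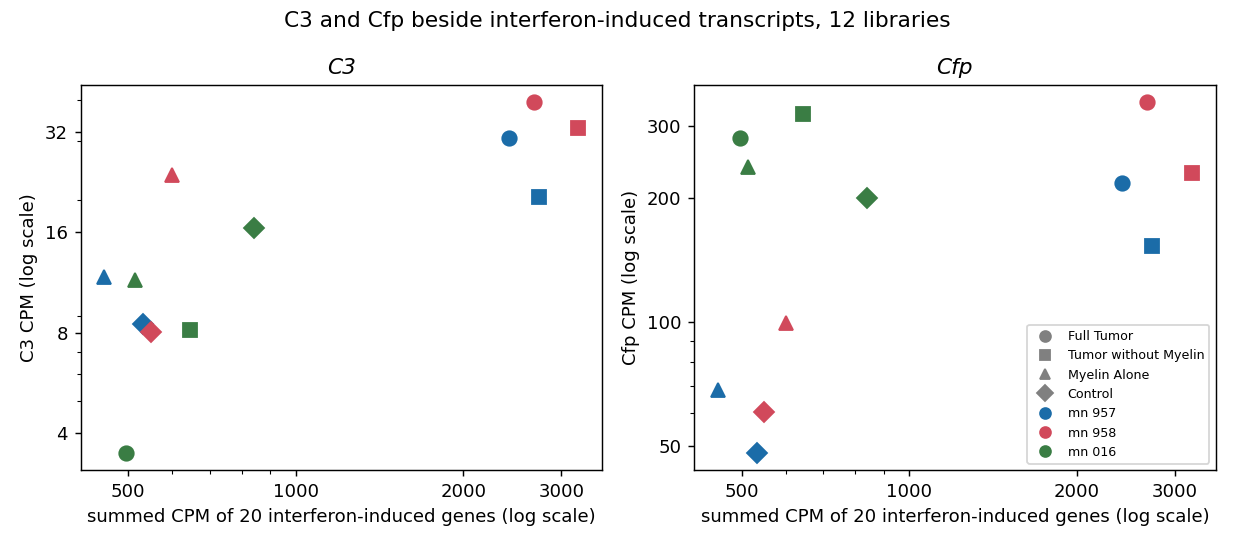
C3 (left) and Cfp (right) in CPM (y axes, log scale) against the summed CPM of 20 interferon-induced genes (x axes, log scale), with 1 point per library, shape for the group and colour for the mn number. The 4 tumor libraries of numbers 957 and 958 stand at 2413 to 3219 CPM of interferon-induced transcripts, and the other 8 at 453 to 840.3.

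Cfb (ENSMUSG00000090231, chromosome 17, 34856374 to 34862518, minus strand), the factor B gene, was barely detected. It had 6 counts over the 3 Full Tumor libraries, 1 over Tumor without Myelin, 4 over Myelin Alone and 0 over Control, and no library had more than 4. It was left out of the tests, no fold is given, and a difference was not detectable at these counts. The gene shares 6107 bases with Gm20547 on the same strand, so reads of the pair cannot be told apart. The part of this overlap in the low counts was not tested.

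Cfp (ENSMUSG00000001128, chromosome X, 20925454 to 20931555, minus strand) encodes properdin, which myeloid cells release. It had 218, 342 and 281 CPM in Full Tumor, 154, 229.9 and 320.0 in Tumor without Myelin, 68.3, 99.7 and 238 in Myelin Alone and 48.2, 60.5 and 199.9 in Control, for 957, 958 and 016. All Full Tumor libraries were above all Control libraries, and number 016 was the highest in every group but Full Tumor. Means were 280.1 ± 62.2 CPM in Full Tumor, 234 ± 83.3 in Tumor without Myelin, 135 ± 90.2 in Myelin Alone and 103 ± 84.3 in Control (SD, n = 3 each). With the block Cfp rose in Full Tumor by 1.74 ± 0.30 (edgeR adjusted p = 0.0233), a fold of 3.35 and the highest of the members. In Tumor without Myelin the value was 1.38 ± 0.30 (edgeR adjusted p = 0.0673), which did not pass. The Full Tumor call was lost, at adjusted p-values of up to 0.145 in edgeR, without the 957 or the 958 library of either Full Tumor or Control. Over all 12 libraries Cfp rose with tumor material by 1.33 ± 0.21 (edgeR adjusted p = 0.00767).

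That rise was uneven over the numbers. Full Tumor minus Control was 2.17 in 957, 2.50 in 958 and 0.49 in 016 on the log2 scale, and the test of a difference between numbers gave an adjusted p of 0.108 in edgeR. Number 016 had the highest Control level, 199.9 CPM. In the blocked fit the Full Tumor value was 1.50 ± 0.42 without number 957 (edgeR adjusted p = 0.413) and 1.35 ± 0.35 without 958 (0.407), and the call was lost in both. Without 016 it was 2.34 ± 0.13 (edgeR adjusted p = 6.2e-05). The genes most like Cfp over the 12 libraries were Ms4a6d (r = 0.98), Lgals9 (0.97), which encodes galectin-9, and Ctsl (0.97), which encodes the lysosomal protease cathepsin L.

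The receptor genes varied least between libraries. C3ar1 (ENSMUSG00000040552, chromosome 6, 122847138 to 122856161, minus strand) had 2112, 2148 and 2438 CPM in Full Tumor, 2450.1, 2097 and 2444 in Tumor without Myelin, 2049.8, 1494 and 1567 in Myelin Alone and 1828, 1639 and 1540.4 in Control. C5ar1 (ENSMUSG00000049130, chromosome 7, 16246743 to 16259540, minus strand) had 774, 918 and 1043 CPM in Full Tumor, 1086, 918 and 1152 in Tumor without Myelin, 529.8, 573 and 585 in Myelin Alone and 764, 749 and 653 in Control. For each receptor, all 6 tumor libraries lay above all 6 others. The margin was small, 2097 CPM against 2049.8 CPM for C3ar1 and 774 CPM against 764 CPM for C5ar1.

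Against Control alone, edgeR called neither receptor in either fit. The libraries of each tumor group did not overlap those of Control. For this and every other lack of overlap given here, the share over all genes was not counted. With the block C3ar1 had 0.42 ± 0.10 in Full Tumor (edgeR adjusted p = 0.119) and 0.48 ± 0.10 in Tumor without Myelin (0.0678). C5ar1 had 0.33 ± 0.12 in Full Tumor (edgeR adjusted p = 0.340) and 0.54 ± 0.12 in Tumor without Myelin (0.0721). Other tools differed: with the block, DESeq2 called C3ar1 in both tumor groups and C5ar1 in Tumor without Myelin, and limma-voom called both receptors in Tumor without Myelin. In the contrast over all 12 libraries both rose with the block, C3ar1 by 0.44 ± 0.07 (edgeR adjusted p = 0.0105), a fold of 1.36, and C5ar1 by 0.62 ± 0.08 (0.00298), a fold of 1.53. The C3ar1 call was lost without the whole of number 958 or 016, and that of C5ar1 without 957 or 958. With group as the only term the same values were 0.44 ± 0.10 for C3ar1 (edgeR adjusted p = 0.160) and 0.62 ± 0.10 for C5ar1 (0.0528). Within every mn number both were higher with tumor material, C3ar1 by 0.23, 0.44 and 0.65 and C5ar1 by 0.53, 0.49 and 0.83 for 957, 958 and 016.

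C3ar1 and C5ar1 correlated with each other at r = 0.86 over the 12 libraries after centring on the number, and C3ar1 with the C1q genes at 0.85 to 0.87. The genes most like C3ar1 were Fermt3 (r = 0.97), Tlr7 (0.97) and Gpr65 (0.96), and those most like C5ar1 included Frmd4b (r = 0.98) and Dab2 (0.97). Tlr7 encodes a sensor of single-stranded RNA, Fermt3 an activator of integrins in blood cells, and Dab2 an adaptor protein of endocytosis.

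Myelin by itself was compared with Control to ask what it did without tumor material. Among the 7 tested members 0 were called by edgeR in either fit, against 0.0373% of all genes with the block and 0% with group only. In both fits 1 member, C5ar1, had an unadjusted p under 0.05. Of the 13414 tested genes, 810 reached that level with the block and 279 with group only. DESeq2 and limma-voom called 0 members as well. C1qa averaged 214 ± 124 CPM in Myelin Alone and 204 ± 120 CPM in Control (SD, n = 3 each), with a blocked log2 fold change of 0.10 and an interval of 2 SE to each side from −0.30 to 0.50. The intervals were −0.08 to 0.49 for C1qb, −0.07 to 0.51 for C1qc, −1.03 to 1.51 for C3, −0.13 to 1.04 for Cfp and −0.19 to 0.23 for C3ar1. The interval of C3 was the widest. With group only, the intervals reached from −0.89 to 1.04 for C1qa, −0.83 to 1.14 for C1qb and −0.68 to 1.02 for C1qc. By number, C1qa was −0.52, 0.11 and 0.76 for 957, 958 and 016.

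C5ar1, the member at an unadjusted p under 0.05, was not called. It averaged 563 ± 29.1 CPM in Myelin Alone and 722 ± 60.6 CPM in Control (SD, n = 3 each), and the groups did not overlap. How many of all genes lacked overlap was not counted. The blocked log2 fold change was −0.36 ± 0.12 (edgeR adjusted p = 0.626), lower in 3 of 3 numbers at −0.53, −0.39 and −0.16, and it did not pass. C3ar1 did not move with it, so the ratio of C3ar1 to C5ar1 CPM was 2.61 to 3.87 in Myelin Alone, against 2.19 to 2.39 in Control, 2.34 to 2.73 in Full Tumor and 2.12 to 2.28 in Tumor without Myelin.

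Full Tumor was set against Tumor without Myelin to ask what myelin added in the presence of tumor material. Here edgeR called 0 members, and 0% of all genes, in either fit. At an unadjusted p under 0.05, 0 members passed, against 520 tested genes with the block and 161 with group only. DESeq2 and limma-voom called 0 members too. The blocked log2 difference was −0.23 for C1qa (2 SE interval −0.62 to 0.17), −0.11 for C1qb (−0.40 to 0.17) and −0.16 for C1qc (−0.45 to 0.12). It was 0.37 for Cfp (−0.21 to 0.95), 0.19 for C3 (−1.04 to 1.42), −0.06 for C3ar1 (−0.26 to 0.15) and −0.21 for C5ar1 (−0.45 to 0.03). The C1q genes were lower in Full Tumor in 3 of 3 numbers, by amounts within these intervals. C5ar1 was at −0.49 in 957 on the log2 scale and at nearly the same level in 958, 918 CPM in each group.

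Full Tumor was also set against Myelin Alone to ask what tumor material added to myelin. With the block edgeR called 0 of the 7 members, against 0.112% of all genes. At an unadjusted p under 0.05, 6 members and 995 of the 13414 tested genes passed. The nearest was C5ar1 at 0.69 ± 0.12 (edgeR adjusted p = 0.0529), with 911 ± 134 CPM in Full Tumor and 563 ± 29.1 CPM in Myelin Alone (SD, n = 3 each) and no overlap. C1qa had 1.03 ± 0.20 (edgeR adjusted p = 0.101) and Cfp 1.29 ± 0.30 (0.166). With group only, edgeR called 0 members and 0% of all genes, and 2 members and 402 of all tested genes had an unadjusted p under 0.05. DESeq2 with group only called 1, C5ar1, and limma-voom 0. This comparison turned on the tool. With the block, limma-voom called 2 members and DESeq2 called 6, every tested member except C3.

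The effect of myelin over all 12 libraries, Full Tumor and Myelin Alone against Tumor without Myelin and Control, called 0 members by edgeR in both fits, against 0.112% of all genes with the block and 0% with group only. In each fit 1 member had an unadjusted p under 0.05, C5ar1 at −0.29 ± 0.08 with the block (edgeR adjusted p = 0.390). Over all tested genes, 957 reached that unadjusted level with the block and 321 with group only. The interaction, which asks whether myelin acted differently with tumor material than without it, called 0 members and 0% of genes. At an unadjusted p under 0.05 it had 0 members, against 393 tested genes with the block and 153 with group only. Blocked interaction values were −0.33 ± 0.28 for C1qa, −0.32 ± 0.20 for C1qb, −0.38 ± 0.20 for C1qc and 0.15 ± 0.17 for C5ar1. DESeq2 and limma-voom called 0 members in both.

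Other genes of the pathway were taken from a list of 52, of which 35 were in the table and 21 passed the filter. Few followed the members. With the block, 1 of the 21 rose and 1 fell between Full Tumor and Control, against 0.813% of all genes called in either direction, and the median log2 fold change was 0.04, against 0.88 for the members and 0.01 for all tested genes. Calr, whose product calreticulin is a chaperone that can act as a surface partner of C1q, had 553, 469.9 and 638 CPM in Full Tumor, 433, 439 and 609 in Tumor without Myelin, 378, 389 and 431 in Myelin Alone and 317, 298 and 399 in Control. The Full Tumor libraries did not overlap Control, and Calr rose by 0.71 ± 0.09 (edgeR adjusted p = 0.00474). It rose in Tumor without Myelin as well, by 0.54 ± 0.09 (edgeR adjusted p = 0.0243), where it was the single call among the 21, against 0.745% of all genes in either direction. Itgax, which encodes the alpha chain of complement receptor 4, had 88.4, 80.7 and 130.2 CPM in Full Tumor, 90.8, 90.5 and 170.0 in Tumor without Myelin, 137, 141 and 147 in Myelin Alone and 161, 152 and 214 in Control. It fell in Full Tumor by 0.83 on the log2 scale, with an SE of 0.15 (edgeR adjusted p = 0.0248), and all Full Tumor libraries were below all Control libraries.

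By role, receptors gave the most tested genes, 9 of the 21. Of 10 receptor genes 9 were tested, with summed levels of 2819 to 3695 CPM in Full Tumor and 2945 to 3858 in Control. Of 16 regulators 7 were tested, with sums of 180.1 to 187 CPM in Full Tumor and 177 to 178 in Control. The classical and lectin components had 4 of 16 tested, with 11 in the table, and sums of 65.0 to 89.7 CPM in Full Tumor and 66.9 to 73.9 in Control. Colec12, at 49.7 to 80.8 CPM over the libraries, made up most of these sums. C1ra had at most 5.70 CPM in any library, and C1rb, C1s1, C2, C4a and C4b at most 0.570. Of 7 terminal components 2 were in the table and 1 was tested, and sums were at most 4.25 CPM in any library. Of the 3 other alternative pathway genes 0 were tested. Those partner components of C1q and of the terminal pathway that were in the table thus had scarce transcripts in macrophages that held abundant C1q.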

How the data were processed

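The authors deposited raw counts per gene, whole numbers, for 12 libraries of sorted dTomato+ macrophages, with cDNA made by oligo-dT priming and template switching, per the labels' protocols. Coordinates are on mm10, per the submitters' processing notes. How reads were aligned and counted, and whether by strand, is not given in the sources used here. Reads of overlapping genes therefore cannot be told apart. All 8 genes had the same start and end in GENCODE M21. The series concerns myelin recycling, and the 8 genes, the gene lists and the contrasts were chosen with earlier results of these data known.

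From the counts, edgeR 4.0.16 (R 4.3.3) gave TMM factors (0.965 to 1.06), CPM and quasi-likelihood tests (glmQLFit, glmQLFTest) in 1 fit of all 12 libraries, with group as the only term. The filterByExpr step kept 13414 genes, with 99.9% of the counts. P-values were two-sided and Benjamini-Hochberg adjusted over all tested genes, with a threshold of 0.05. Each SE is approximate: the size of the log2 fold change divided by the root of the F statistic. Named genes were all 8 members, listed pathway genes that passed in any comparison, and the genes with the highest Pearson r to the C1q mean (5 genes) or to another tested member (3 genes each), among genes of 10 CPM or more. Some genes that the rule or the lists take are not reported here.

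Whether the mn number pairs libraries was checked on deviations from the group means. With edgeR's prior count of 2, 18 of 18 same-numbered pairs had r above 0.1 (0.120 to 0.631). With 0.5 it was 17 of 18, the lowest at 0.0887. The numbers were taken to pair the libraries, so values with the number as a block stand beside the results. The block lowered edgeR's biological coefficient of variation to 0.266 (6 residual degrees of freedom), against 0.414 (8) without it.

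Totals of 17071673 to 21689624 counts set the precision, and limits on a count of 0 (3 counts) cover counting error only. No 2 libraries of a group were duplicates (chi-square per degree of freedom 23.9 to 142). The procedure was tested on simulated data. Alternatives were DESeq2 1.42.0, limma-voom 3.58.1, other scaling, no filter, and leaving out libraries or numbers. Promoters are from RefSeq (GRCm38.p6), which held 6 of the 8 genes. Those of C1qa and Cfb are not used here.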

Additional observations from a re-analysis of the deposited data

How the results depend on the processing

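Of 39 alternative settings, 30 left out libraries or numbers. In every setting, 0 members were called between Myelin Alone and Control or between Full Tumor and Tumor without Myelin. The same held for myelin over all libraries and for the interaction. Directions were compared only for members that the main or the blocked fit called, and none of these reversed. C3 was not among them, and its blocked Full Tumor value was slightly below 0 without number 957 or 958. With group only, no low-count filter called 1 member in the tumor contrast (48 genes in all, against 10). DESeq2 called 2 there (171 genes) and 1 between Full Tumor and Myelin Alone (18 genes). Without number 016 group-only fits called 1 member each, Cfp, in Full Tumor (69 genes) and in Tumor without Myelin (61 genes) against Control and in the tumor contrast (115 genes). The fit with the replicate block, which pairs libraries by mn number, called 4 members in Full Tumor (109 genes), 3 in Tumor without Myelin (100 genes) and 6 in the tumor contrast (302 genes). With library totals in place of TMM it called 4, 3 and 6. With the block, DESeq2 called 5, 6 and 6 members (531 genes in Full Tumor, 691 in the tumor contrast) and 6 between Full Tumor and Myelin Alone (351 genes), and limma-voom 4, 5 and 6 (159 genes in Full Tumor, 400 in the tumor contrast) and 2 (35 genes). Both blocked tools were added after the data were seen. Without number 016 the block called 5, 5 and 6, and 5 between Full Tumor and Myelin Alone; C3 is among them against Control and in the contrast. Without 957 it called 0, 0 and 2, and without 958 it called 0, 0 and 3, with fewer libraries. Leaving out 1 library in turn, with group only or with the block, gave 0 to 4 members in Full Tumor, 0 to 4 in Tumor without Myelin, 0 to 4 between Full Tumor and Myelin Alone and 0 to 6 in the tumor contrast. For library totals with the block, blocked fits without a number and fits without 1 library, counts over all genes are not given here. Those member counts therefore stand without a background. Where tools or settings differed, the cause was not tested. Among the 8 genes only Cfb had too few counts to be tested. The part of depth and of its overlap with Gm20547 in those counts was not tested.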
